A study of Mus musculus with 9 samples.

Results

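A set of 10 genes of sugar and monocarboxylate transport in the kidney were followed in the kidney cortex of lean and diabetic mice. The list was given by gene name: the sodium-coupled carriers Slc5a1, Slc5a2, Slc5a8, Slc5a10 and Slc5a12 and the facilitative carriers Slc2a1, Slc2a2, Slc2a4, Slc2a5 and Slc2a9. A probe set that carried only that gene's symbol was found for 9 of them, among 22180 genes with such a probe set. The probe set of Slc5a10, a mannose and fructose carrier, also carried the symbol Fam83g, so no value is given for Slc5a10. The 9 genes lay above the filter on dim genes, and 17740 genes were tested in all.

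The RNA came from male mice of the C57BLKS/J strain aged 20 weeks, with 3 Affymetrix arrays in each of 3 groups. The db/m mice carry a single mutated copy of the leptin receptor gene and are lean. The db/db mice carry the mutation on both copies, become obese and diabetic, and were given saline. The third group, db/db+TSF, had the same genotype and received the herbal Tang-shen Formula (TSF) through a gavage tube at 2.4 g/kg/day for 12 weeks. The labels count 9 mice in each db/db group and call the arrays biological replicates. They do not say whether an array held the RNA of a single mouse, nor what db/m mice were given. The study set out to look for targets of the formula in diabetic kidney injury, and all mutant mice in it are whole-body mutants of the leptin receptor.

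Glucose filtered by the glomerulus is taken back along the proximal tubule. SGLT2, the product of Slc5a2, carries most of it across the brush border of the first parts of the tubule together with sodium, and SGLT1, the product of Slc5a1, takes up what is left in the last part. Glucose then leaves the cell on the blood side through facilitative carriers of the GLUT family, of which GLUT2 (Slc2a2) serves the first parts and GLUT1 (Slc2a1) the later segments. Slc5a8 and Slc5a12 belong to the same gene family as the SGLTs but carry lactate and other monocarboxylates. GLUT5 (Slc2a5) carries fructose, GLUT9 (Slc2a9) carries urate, and GLUT4 (Slc2a4) is best known as the insulin-regulated carrier of muscle and fat. SGLT2 is the target of a class of drugs used in diabetic kidney disease.

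Values below are log2(intensity + 1) of the brightest probe set of each gene, and a difference is a log2 fold change on that scale. Adjusted p-values come from a limma fit over all 17740 genes with Benjamini-Hochberg adjustment, and a gene passed the test when its adjusted p was under 0.05. Standard errors (SE) are those of the fit. Intervals are 95% intervals of single genes and are not adjusted for the number of genes. Array medians ran from 3.50 to 3.61 on the same scale, and levels of different genes were not compared, since probe sets differ in brightness. In whole cortex, fewer cells of a type and less RNA per cell cannot be told apart. Among proximal tubule markers that are not members, Slc34a1 measured 12.12 to 12.27 and Lrp2 10.99 to 11.29 over the arrays. Kap, from the same list of 6 markers, had group means of 11.76 (lean), 10.89 (untreated) and 10.31 (TSF). Its difference from db/m was -0.87 in untreated mice (adjusted p = 0.233) and -1.45 after TSF (adjusted p = 0.0306). The second passed, a call lost in 5 of 19 alternatives. The list's array averages were 11.47 to 11.52 (lean), 11.28 to 11.36 (untreated) and 10.99 to 11.34 (TSF). Of the 6 differences from lean mice, 2 were positive without treatment and 3 after TSF. Neutrophil markers averaged 5.19 in db/db replicate 3 and 2.62 to 2.97 in the other arrays.

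Promoter windows of the RefSeq table (GRCm38.p6 build, 250 bases before to 50 after the gene start it lists) held 7 of the 10 genes. Slc2a4, Slc5a2 and Slc5a12 were not among them. The windows shown, written 5′ to 3′ on the strand of the gene, are those of Slc5a1, the member with the largest difference between db/db and db/m, and Slc2a5 and Slc2a9, both higher in each of the 6 db/db and db/db+TSF arrays than in any db/m array. Capitals mark matches to 5 motifs searched on both strands; no matches overlap in these windows.
Slc5a1, chr5:33103969-33104268, plus strand: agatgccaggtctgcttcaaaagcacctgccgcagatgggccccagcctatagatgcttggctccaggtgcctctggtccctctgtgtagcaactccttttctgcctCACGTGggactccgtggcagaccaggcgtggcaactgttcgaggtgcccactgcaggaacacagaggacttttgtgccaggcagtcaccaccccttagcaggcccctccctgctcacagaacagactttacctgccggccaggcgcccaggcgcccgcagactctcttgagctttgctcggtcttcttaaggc
Slc2a5, chr4:150119094-150119393, plus strand: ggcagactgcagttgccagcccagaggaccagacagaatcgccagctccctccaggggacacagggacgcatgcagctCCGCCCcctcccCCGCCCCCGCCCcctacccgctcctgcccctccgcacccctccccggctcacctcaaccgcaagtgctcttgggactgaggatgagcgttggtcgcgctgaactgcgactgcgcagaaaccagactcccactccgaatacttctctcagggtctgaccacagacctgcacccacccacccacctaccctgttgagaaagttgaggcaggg
Slc2a9, chr5:38483336-38483635, minus strand: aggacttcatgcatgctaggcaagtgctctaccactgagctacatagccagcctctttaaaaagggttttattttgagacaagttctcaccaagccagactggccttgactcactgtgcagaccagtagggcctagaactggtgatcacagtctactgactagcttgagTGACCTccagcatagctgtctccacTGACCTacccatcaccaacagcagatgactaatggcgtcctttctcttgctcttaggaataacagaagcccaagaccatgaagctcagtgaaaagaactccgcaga
The Slc5a1 window held a single E-box (CACGTG), 143 bases before the start, a motif found in 7.15% of the 32851 windows of the table. The Slc2a5 window held 3 GC boxes (GGGCGG, here read as CCGCCC on the other strand), a motif that 35.7% of windows carry in any number of copies. The Slc2a9 window held 2 copies of the nuclear receptor motif TGACCT, 81 and 56 bases before the start. Of all windows 16.3% carry that motif in any number of copies. The HNF1 motif GTTAAT (7.1% of windows) and the HNF4 motif CAAAGT (14.4% of windows) were not in these 3 windows. Among the members GTTAAT occurred in Slc5a10 and CAAAGT in Slc2a2. TGACCT was also found in the windows of Slc2a2 and Slc5a10, and the GC box in those of Slc2a1 and Slc5a8. A match is a stretch of letters and was not tested as a binding site.

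The first question was which transporter genes differ between untreated diabetic and lean mice. Of the 9 genes measured 8 had a mean above that of db/m (52.2% of all genes did) and 1, Slc5a8, had a lower mean. None passed the test, where 1.05% of all genes did. Of the 9, 5 had an unadjusted p under 0.05, against 13.9% of all genes. In the same 5, Slc5a1, Slc5a2, Slc2a4, Slc2a5 and Slc2a9, every db/db array lay above every db/m array, against 10.4% of all genes with that pattern. The median difference over the 9 genes was 0.32, beside 0.01 over all genes tested. Members were chosen with earlier results of these data known, so the shares given here and below describe the genes and are not a test.

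The sodium-coupled glucose carriers come first. Slc5a1 (SGLT1) measured 8.11, 7.77 and 7.83 in lean mice, 8.51, 8.50 and 8.27 in untreated db/db mice and 8.40, 8.02 and 8.36 after TSF. All 3 db/db arrays were above the highest db/m array, while db/db+TSF replicate 2 fell between the db/m values. The difference between db/db and db/m was 0.52 (SE 0.13, interval 0.23 to 0.81), or 1.44-fold, with an adjusted p of 0.0938. For db/db+TSF against db/m it was 0.36 (SE 0.13, adjusted p = 0.19).

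Slc5a2 (SGLT2), the high-capacity carrier of the early tubule, measured 10.62, 10.75 and 10.59 in db/m. It measured 10.95, 10.96 and 10.83 in untreated db/db mice and 10.95, 11.15 and 10.95 after TSF. Each of the 6 arrays of diabetic mice lay above all 3 lean arrays. The difference was 0.26 in untreated db/db mice (SE 0.09, interval 0.05 to 0.47, adjusted p = 0.242) and 0.37 after TSF (SE 0.09, interval 0.16 to 0.57, adjusted p = 0.0654), both against db/m. The second of these corresponds to 1.29-fold. Leaving out db/db+TSF replicate 2, which had the highest value, brought it to 0.30 with an adjusted p of 0.238. That was the highest adjusted p over 19 alternatives. The lowest was 0.0175, with an intensity trend and robust variance, and 2 of the 19 gained a call.

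The monocarboxylate carriers of the same family showed another arrangement. Slc5a12, the low-affinity lactate carrier of the early tubule, measured 10.87, 11.15 and 10.41 in lean mice, 11.16, 11.12 and 11.22 in untreated db/db mice and 11.08, 11.43 and 11.25 after TSF. Its spread was widest in the lean group (SD 0.38, against 0.05 in untreated db/db mice and 0.18 after TSF), and the highest db/m array lay above the lowest array of either diabetic group. The difference between db/db and db/m was 0.35 (SE 0.17, adjusted p = 0.374) and dropped to 0.15 without db/m replicate 3. Slc5a8, the high-affinity lactate carrier of later segments, measured 10.88, 10.81 and 10.58 in lean mice, 10.64, 10.63 and 10.57 in untreated db/db mice and 10.66, 10.31 and 10.64 after TSF. Its differences from db/m were -0.14 in untreated db/db mice (adjusted p = 0.629) and -0.22 after TSF (adjusted p = 0.384), and the groups overlapped in both.

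**Figure D1:**
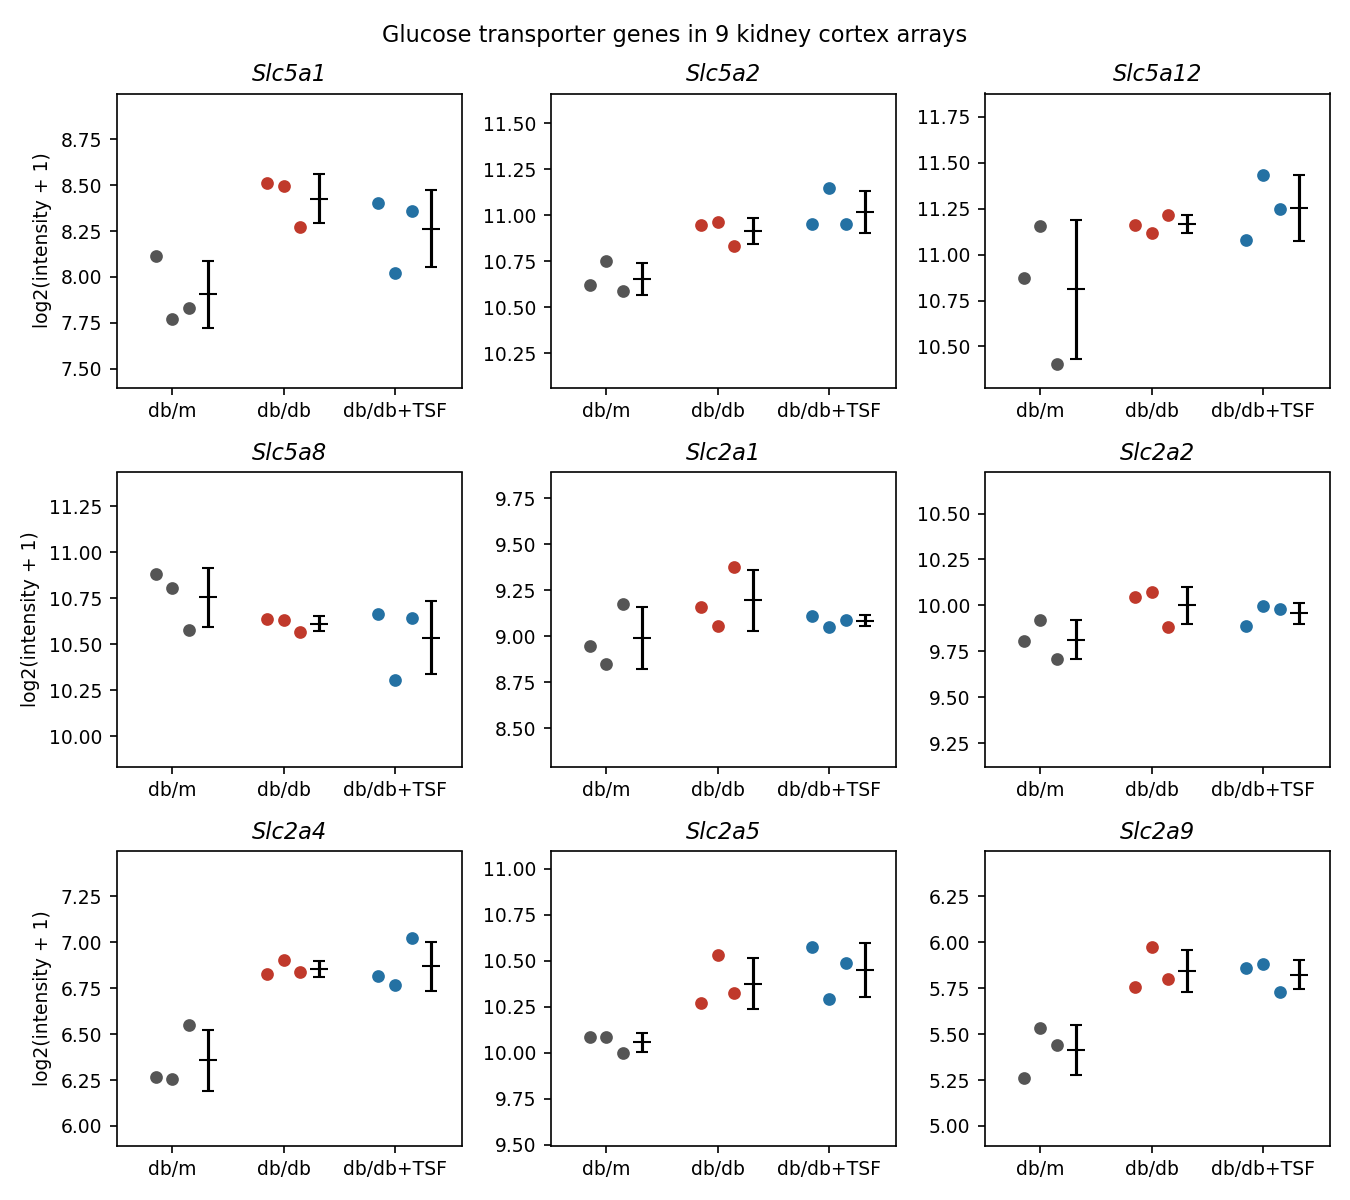
Log2(intensity + 1) of the 9 measured transporter genes in each of the 9 arrays, with 1 point per array in the order of the replicate numbers and, beside the points of each group, the mean with a bar of 1 SD (n = 3). Each panel spans the same height on the log2 scale; in Slc5a2, Slc2a4, Slc2a5 and Slc2a9 all 6 diabetic arrays lie above the 3 db/m arrays.

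Among the facilitative carriers of glucose, GLUT2 and GLUT1 differed least. Slc2a2 (GLUT2) measured 9.81, 9.92 and 9.71 in lean mice, 10.05, 10.07 and 9.88 in untreated db/db mice and 9.89, 9.998 and 9.98 after TSF. The groups overlapped, with a difference of 0.19 between db/db and db/m (SE 0.09, interval -0.02 to 0.40, adjusted p = 0.404). Slc2a1 (GLUT1) measured 8.95, 8.85 and 9.18 in lean mice, 9.16, 9.05 and 9.38 in untreated db/db mice and 9.11, 9.05 and 9.09 after TSF. Its groups overlapped as well, and the difference between db/db and db/m was 0.21 (SE 0.11, interval -0.04 to 0.45, adjusted p = 0.45). A second, dimmer probe set of Slc2a1, at 3.89 to 4.22, differed by -0.02 between the same groups. That is less than its SD (0.11 in db/m and 0.16 in db/db), so it showed no direction either way.

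Slc2a4 (GLUT4) was the member nearest to a call. It measured 6.27, 6.26 and 6.55 in lean mice, 6.82, 6.90 and 6.84 in untreated db/db mice and 6.82, 6.77 and 7.02 after TSF. Every array of the diabetic groups lay above every lean array, and the db/db arrays had the smallest spread (SD 0.04). Against db/m the difference was 0.50 in untreated db/db mice (SE 0.11, interval 0.26 to 0.73, adjusted p = 0.0564) and 0.51 after TSF (SE 0.11, interval 0.27 to 0.75, adjusted p = 0.0302), or 1.41-fold and 1.42-fold. Slc2a4 therefore rose in db/db+TSF and missed the threshold in db/db. The call in db/db+TSF was lost without db/m replicate 1 (adjusted p = 0.102), without db/m replicate 2 (0.0865) or without any of the db/db+TSF arrays (0.0603, 0.0599 and 0.119 for replicates 1, 2 and 3). It was also lost with arrays scaled to the same median (0.0551) and with only the 2 groups in the fit (0.066). In db/db the adjusted p was 0.037 without db/m replicate 3 and up to 0.167 without db/m replicate 1.

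Markers of the tissues best known for GLUT4 were dim in all groups. The 4 fat markers (Adipoq, Plin1, Cidec and Lep) averaged 3.27, 4.32 and 3.39 in lean mice. They averaged 3.24 to 3.38 in untreated db/db mice and 3.40 to 3.58 after TSF. The 4 skeletal muscle markers averaged 3.56 to 3.67, 3.58 to 3.63 and 3.62 to 3.73 in the same groups. Averages of 2 other marker lists were higher in every diabetic array than in any db/m array, though most of their genes did not pass. The 4 smooth muscle and pericyte markers averaged 7.95 to 8.03 in lean mice, 8.24 to 8.30 in untreated db/db mice and 8.06 to 8.17 after TSF. Of these 4 only Rgs5 rose, by 0.64 in db/db and 0.60 after TSF, calls lost in 7 and in 3 of the 19 alternatives (adjusted p up to 0.102 and 0.0651). Against db/m, Pdgfrb measured -0.08 in db/db and -0.25 after TSF, Acta2 0.21 and -0.01, and Myh11 0.32 and 0.20. The 5 loop and distal tubule markers averaged 9.85 to 9.93, 10.17 to 10.29 and 10.18 to 10.37 in the same groups. Of these 5, 1 rose in db/db (Calb1) and 2 after TSF (Calb1 and Pvalb), where 1.05% and 3.13% of all genes passed. The Calb1 call in db/db was lost in 14 of the 19 alternatives (adjusted p up to 0.155). The Pvalb call after TSF was lost in 5 (up to 0.0767) and that of Calb1 in 0. All 5 had means above that of db/m in both comparisons. Slc12a3 measured 0.27 in db/db and 0.36 after TSF, Slc12a1 0.37 and 0.05, and Umod 0.15 and 0.04. The part of any of these marker lists, fat and skeletal muscle included, in the Slc2a4 difference was not tested.

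The genes whose pattern over the 9 arrays was most like that of Slc2a4 were Gsta3, a glutathione transferase, Pln, which encodes phospholamban, an inhibitor of the calcium pump of the muscle reticulum, and Tmem38a, a cation channel of the same membrane. After each gene's own mean was taken off, their root mean square differences from Slc2a4 were each 0.10, where Slc2a4 itself varied by 0.26 around its mean. Pln was dim, at 4.88 to 5.11 in db/m and 5.27 to 5.54 in the diabetic groups. The likeness rests on 9 arrays and includes the difference between groups.

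The carriers of other substrates were Slc2a5 and Slc2a9. Slc2a5 (GLUT5), the fructose carrier, measured 10.08, 10.09 and 9.998 in lean mice, 10.27, 10.53 and 10.33 in untreated db/db mice and 10.57, 10.29 and 10.49 after TSF. The lean arrays lay close together (SD 0.05) and below all others. The difference from db/m was 0.32 in untreated db/db mice (SE 0.11, interval 0.09 to 0.55, adjusted p = 0.202) and 0.39 after TSF (SE 0.11, interval 0.16 to 0.63, adjusted p = 0.073).

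Slc2a9 (GLUT9), the urate carrier, measured 5.26, 5.53 and 5.44 in lean mice, 5.76, 5.97 and 5.80 in untreated db/db mice and 5.86, 5.88 and 5.73 after TSF. Here too the 6 diabetic arrays lay above the 3 lean ones. The difference was 0.43 in untreated db/db mice (SE 0.10, interval 0.20 to 0.66, adjusted p = 0.0804) and 0.41 after TSF (SE 0.10, interval 0.19 to 0.64, adjusted p = 0.0574).

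**Figure D2:**
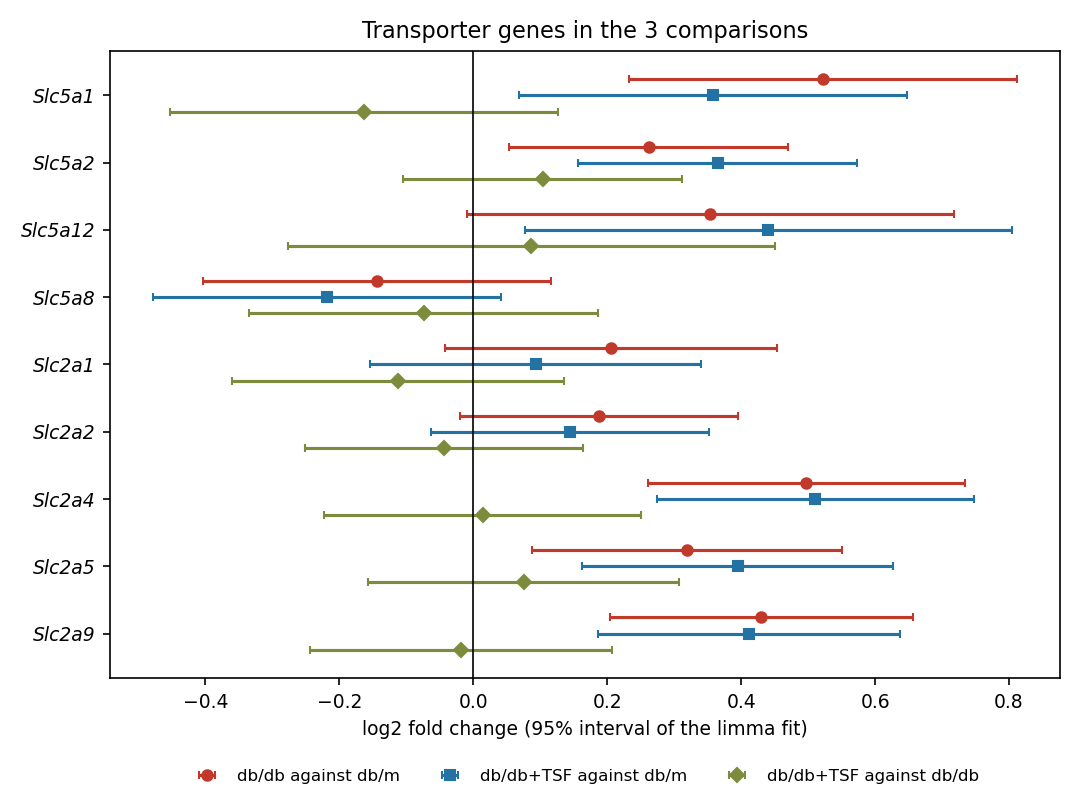
Log2 fold changes of the 9 transporter genes with 95% intervals of the limma fit, for db/db against db/m (circles), db/db+TSF against db/m (squares) and db/db+TSF against db/db (diamonds). The first 2 comparisons share the db/m arrays, and the third shares arrays with both; every interval of the third includes 0, and Slc2a4 has the largest value in db/db+TSF against db/m (0.51).

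For db/db+TSF against db/m, 1 of the 9 genes passed, Slc2a4, where 3.13% of all genes passed. Of the 9, 6 had an unadjusted p under 0.05 (17.2% of all genes), and in 4 every db/db+TSF array lay above every db/m array (9.76% of all genes). The median difference was 0.37, beside 0.00 over all genes. This comparison uses the same db/m arrays as the one before, so the values stand side by side and are not separate evidence.

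Whether the formula changed these genes is a question for the treated against the untreated diabetic mice. None of the 9 genes passed, as was the case for all 17740 genes (0% called), and no member had an unadjusted p under 0.05, where 11.7% of all genes did. In none of the 9 did the groups lie apart, against 20.1% of all genes. Differences ran from -0.16 for Slc5a1 (interval -0.45 to 0.13) to 0.10 for Slc5a2 (interval -0.10 to 0.31), and adjusted p-values from 0.654 to 0.971. For Slc2a4 the difference was 0.01 (interval -0.22 to 0.25) and for Slc2a9 it was -0.02 (interval -0.24 to 0.21). The widest interval was that of Slc5a12, 0.09 with bounds of -0.28 and 0.45. With 3 arrays a group, differences within these bounds in either direction cannot be told from none.

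Because both diabetic groups were close to each other, the mean of the db/db and db/db+TSF groups was also set against db/m in the same fit, a comparison chosen after the values were seen. Slc2a4 (0.50, SE 0.09, adjusted p = 0.0155) and Slc2a9 (0.42, SE 0.09, adjusted p = 0.0292) rose, 2 of the 9 genes, where 2.94% of all genes passed, 1.41% of all genes upward. In Slc5a2, Slc2a4, Slc2a5 and Slc2a9 all 6 diabetic arrays lay above the lean ones, a pattern of 4.23% of all genes. Slc5a1 (0.44, adjusted p = 0.0679), Slc5a2 (0.31, adjusted p = 0.0698) and Slc2a5 (0.36, adjusted p = 0.0652) did not pass. An unadjusted p under 0.05 was found for 6 of the 9 genes, against 16.5% of all genes. Slc2a4 lost its call without db/m replicate 1 (0.0784) or 2 (0.0676). Slc2a9 lost it when db/m replicate 1 (0.13) or 3 (0.0653) was left out, when db/db replicate 2 was (0.0569), or db/db+TSF replicate 1 (0.0615) or 2 (0.0613).

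Slc5a1 was the only one of 6 markers of the last part of the proximal tubule with a mean above that of db/m. That list holds Slc5a1, Slc5a8, the amino acid carriers Slc7a13 and Slc6a18, the organic anion carrier Slc22a7 and the lipid flippase gene Atp11a. In db/db against db/m, Slc22a7 fell by 3.25, Atp11a measured -1.15 (adjusted p = 0.0764) and Slc7a13 measured -1.37 (adjusted p = 0.326), while Slc6a18 measured -0.02 and Slc5a1 0.52. In db/db+TSF against db/m, Slc22a7 (-3.36), Atp11a (-1.71) and Slc7a13 (-2.70) fell and Slc5a1 measured 0.36. Slc22a7 lost its call in db/db in 6 of the other settings (adjusted p up to 0.123), and after TSF 6 settings ended the call of Slc7a13 (adjusted p up to 0.133). Slc22a7 lost its call after TSF in 2 settings, without db/m replicate 1 (adjusted p = 0.0557) and with an intensity trend and robust variance (0.0718).

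One treated array was the extreme of these values. In db/db+TSF replicate 2 Slc7a13 measured 6.27, against 8.54 and 9.29 in the other arrays of its group, and Atp11a measured 7.96 against 9.33 and 9.14. Slc22a7 measured 3.11 there against 4.81 and 4.60, and Slc6a18 measured 9.41 against 10.52 and 10.22. Slc5a1 (8.02) and Slc5a8 (10.31) were also lowest in that array among the treated ones, and Slc5a2 (11.15) and Slc5a12 (11.43) were highest there. The 6 markers of the last part, Slc5a1 and Slc5a8 included, averaged 7.51 in that array, 8.71 in both other treated arrays, 8.64 to 8.86 in db/db and 9.48 to 9.84 in db/m. Without it the difference of Slc5a1 between db/db+TSF and db/m was 0.48 and that of Slc5a8 -0.10. The part of these markers in the transporter values was not tested. Macrophage markers averaged 5.68 in each lean array, 5.32 to 5.42 in untreated and 4.97 to 5.23 in treated diabetic arrays.

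Markers of the first parts of the tubule, to which Slc5a2 and Slc5a12 belong, differed less. Over the 6 markers (both members included, with Slc34a1, Slc4a4, Gatm and Lrp2) the arrays averaged 11.10 to 11.33 in lean mice, 11.29 to 11.37 in untreated db/db mice and 11.33 to 11.46 after TSF, and 0 of the 6 passed in any comparison. The phosphate carrier gene Slc34a1 had a mean of 12.17 in both db/m and db/db, and of 12.24 after TSF.

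**Figure D3:**
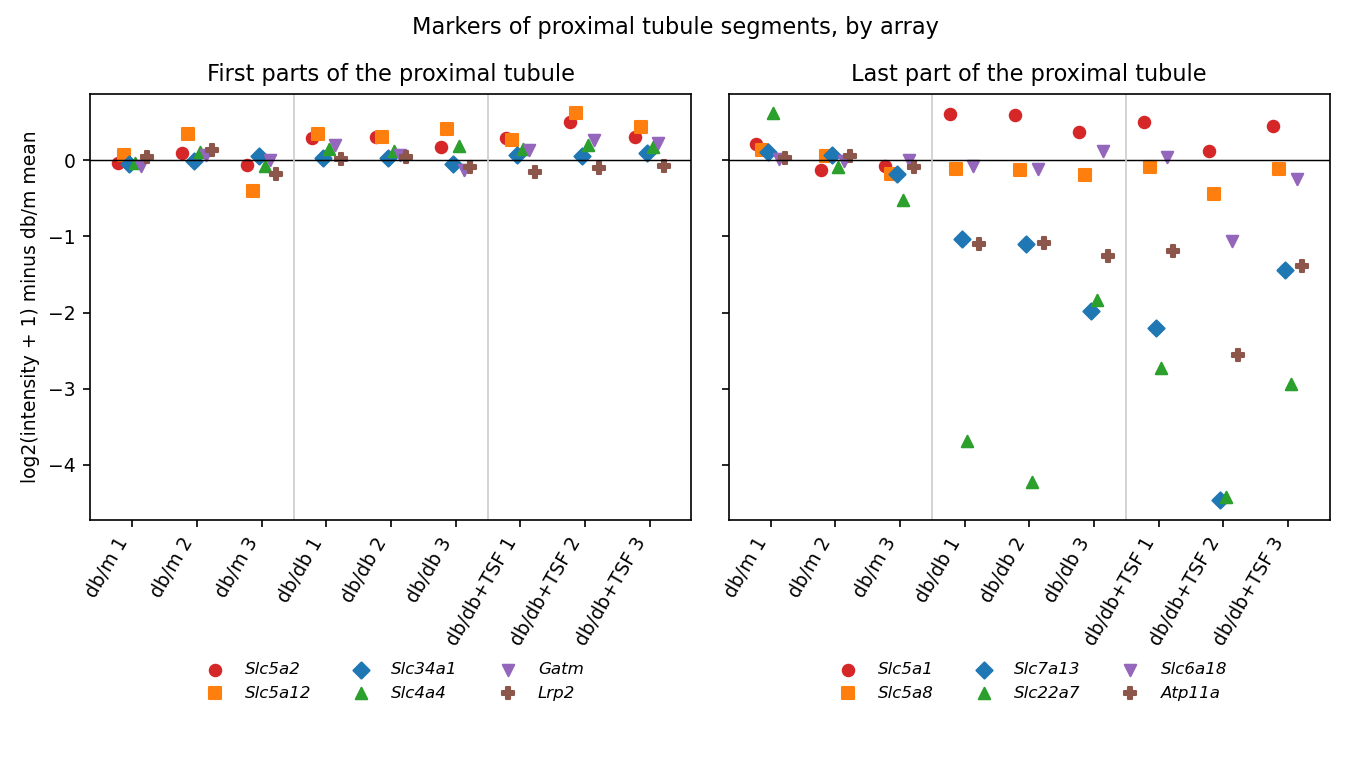
Markers of the first parts (left) and of the last part (right) of the proximal tubule in each array, as log2(intensity + 1) minus the gene's mean over the 3 db/m arrays, with 1 symbol per gene. On the right Slc5a1 lies above the db/m mean in the diabetic arrays while Slc7a13, Slc22a7 and Atp11a lie below it. Slc7a13, Slc22a7, Atp11a and Slc6a18 are each lowest in db/db+TSF replicate 2.

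Other members of both carrier families were taken from gene lists of each family. Of 7 other GLUT genes 0 passed in any comparison, with a median of 0.10 in db/db against db/m. In db/db the smallest p was that of Slc2a12 (GLUT12), at 0.27 in untreated db/db mice and 0.30 after TSF against db/m (adjusted p = 0.263 and 0.154). Slc2a10 (GLUT10), with the smallest p after TSF, had values of -0.19 and -0.30 (adjusted p = 0.386 and 0.111). Of 7 other genes of the SLC5 family and the SWEET carrier Slc50a1, 0 passed, with a median of 0.03. Slc5a9 (SGLT4), a mannose and fructose carrier, measured 5.84, 5.85 and 5.91 in db/m and 6.11, 6.32 and 6.39 in db/db, a difference of 0.40 (SE 0.10, adjusted p = 0.0842), and 0.25 in db/db+TSF (adjusted p = 0.216).

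Partners and regulators of the SGLTs came next. Of 8 genes tested, 0 passed in db/db and 1 rose in db/db+TSF against db/m, where 1.05% and 3.13% of all genes passed. Pdzk1ip1, whose product MAP17 is needed for SGLT2 activity, differed by 0.01 in db/db and by 0.01 in db/db+TSF (SE 0.09 for both). The gene that rose was Sgk1, a kinase induced by corticosteroids that acts on many carriers. It measured 8.02, 7.88 and 7.53 in lean mice, 8.39, 8.26 and 8.94 in untreated db/db mice and 9.41, 8.92 and 9.33 after TSF. The difference from db/m was 0.72 in untreated db/db mice (SE 0.19, adjusted p = 0.116) and 1.41 after TSF (SE 0.19, adjusted p = 0.00403), and it passed in db/db+TSF with each array left out. Between db/db+TSF and db/db it was 0.69 (adjusted p = 0.284), with overlapping arrays. Hnf4a, a transcription factor of the proximal tubule, averaged 10.78 in lean mice, 10.68 in untreated db/db mice and 10.63 after TSF.

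Genes that keep up the sodium gradient that drives the SGLTs did not pass in any comparison (0 of 6), with a median of 0.14 in db/db against db/m. The phosphate carrier Slc34a3 had the smallest p, at 0.35 in untreated db/db mice and 0.48 after TSF (adjusted p = 0.226 and 0.0649). Of 8 genes for the fate of hexoses in the cell 0 passed. Hexokinase 1 (Hk1) differed by 0.40 in db/db (adjusted p = 0.146), and the glucose-6-phosphatase gene G6pc, which releases glucose, by 0.38 in db/db+TSF against db/m (adjusted p = 0.0577).

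Lactate handling, the business of Slc5a8 and Slc5a12, held the largest fall among these lists. Ldhd, the mitochondrial dehydrogenase of D-lactate, measured 11.17, 11.08 and 11.23 in lean mice, 10.26, 10.39 and 10.26 in untreated db/db mice and 10.11, 9.81 and 9.99 after TSF. The groups did not overlap, and Ldhd fell by 0.86 in db/db (SE 0.10, adjusted p = 0.003) and by 1.19 in db/db+TSF (SE 0.10, adjusted p = 2.2e-04), both against db/m. Both calls held with each array left out. It was the only one of 9 genes to pass in either comparison, where 1.05% and 3.13% of all genes passed. The lactate carrier Slc16a1 spread from 7.99 to 9.19 within db/m alone, and Slc16a7 differed by 0.44 in db/db (adjusted p = 0.0879).

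Of the genes of urate handling, the pathway of Slc2a9, 1 of 8 rose and 0 fell in db/db, and 1 rose and 2 fell in db/db+TSF, against db/m. Over all genes 1.05% and 3.13% passed in these comparisons. Abcc4, an efflux pump that carries urate, measured 7.35, 7.60 and 7.78 in db/m and 8.49, 8.68 and 8.30 in db/db, a rise of 0.92 (SE 0.14, adjusted p = 0.0115; 0.0536 without db/db replicate 1). In db/db+TSF it rose by 1.12 (adjusted p = 0.00229). Slc22a12, the apical urate carrier URAT1, measured 10.51 to 10.76 in lean mice, 9.92 to 10.31 in untreated db/db mice and 9.67 to 10.01 after TSF. Its difference was -0.45 in untreated db/db mice (adjusted p = 0.149) and -0.80 after TSF (adjusted p = 0.0106). Slc17a3, a urate and anion carrier, had values of -0.58 (adjusted p = 0.0602) and -0.77 (adjusted p = 0.0105) in the same comparisons. Xdh measured 0.34 in db/db and 0.43 after TSF against db/m, and Slc22a8 measured 0.12 and 0.19. Slc22a6 measured -0.28 and -0.34, Slc17a1 -0.23 and -0.08 and Abcg2 -0.15 and -0.20. None of these passed. Slc2a9 lay higher in the diabetic groups beside urate genes that differed in both directions.

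**Figure D4:**
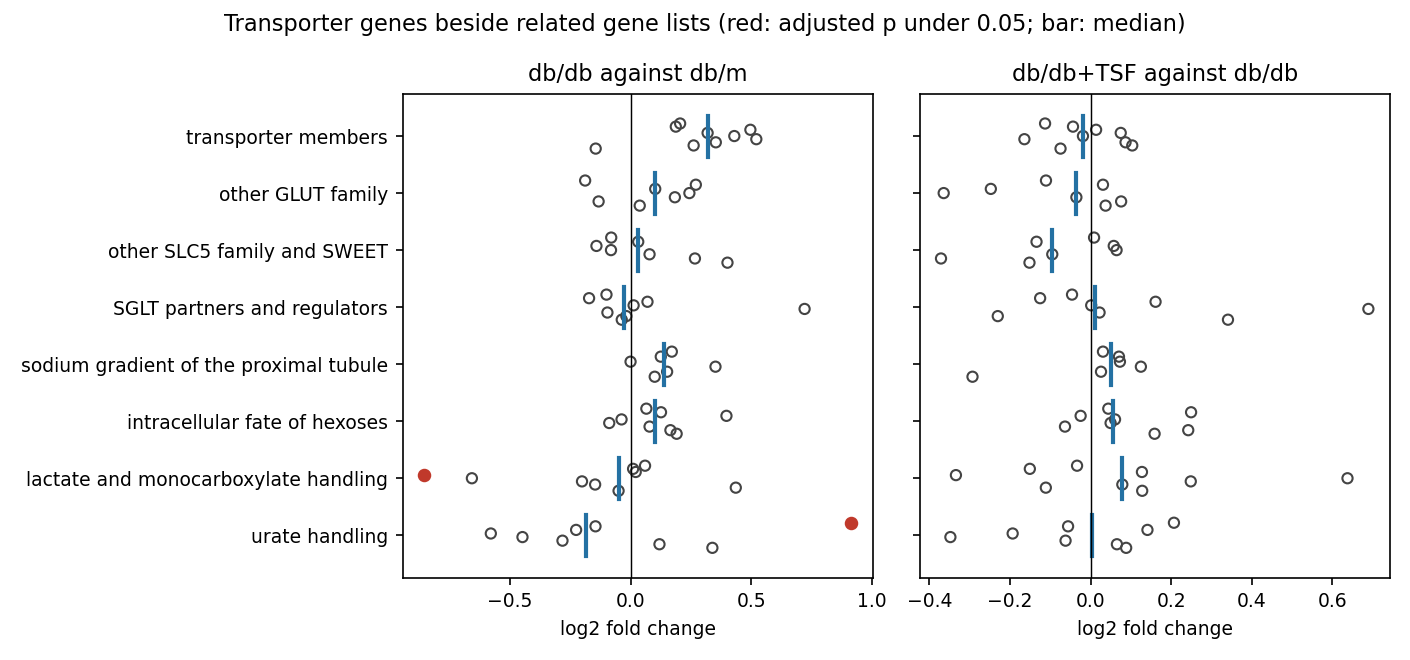
Log2 fold changes of the 9 transporter genes and of 7 related gene lists for db/db against db/m (left) and db/db+TSF against db/db (right), with 1 circle per gene, a bar at each list's median and filled circles for genes with a limma adjusted p under 0.05. The transporter median is 0.32 on the left and -0.02 on the right; the filled circles are Ldhd and Abcc4, and there are none on the right.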

How the data were processed

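Kidney cortex RNA (100 ng per sample) was labelled with biotin and hybridised to 9 Affymetrix arrays, 3 in each of db/m, db/db and db/db+TSF, grouped by sample title. The deposited table gives an intensity for every probe set on each array, not log-transformed. Per the submitters' processing notes the authors used Affymetrix Expression Console and Transcriptome Analysis Console; for background correction, normalization, summary method and genome build the entry is: not given in the sources used here. Without detection calls, a dim value cannot be told from background. The number of arrays limits the precision, and p-values measure the spread between these arrays. No arrays were copies: 2 arrays shared identical values at 3 to 70 of 41345 probe sets.

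Names came from the annotation of the platform, in which 23521 probe sets had 1 symbol, 1814 had several and 16010 were not named in it, array controls included. Only those with 1 symbol were used, the brightest per gene, as log2(value + 1), which understates changes of dim genes. Genes whose mean fell below 2.65, the 30th percentile over the probe sets, were left out. limma 3.58.1 in R 4.3.3 estimated the 3 group means jointly (lmFit, eBayes); the procedure was tested on simulated data. Alternatives were 11 other settings and the 9 fits with 1 array left out. Members and lists were chosen with earlier results of these data known. Besides the members, the text names genes of 7 pathway lists that passed or were among the 2 of smallest p in a comparison, and the 3 genes most like the member that passed in a planned comparison. Of the urate list every tested gene is named. Hnf4a, Pdzk1ip1 and the marker genes named were chosen after their values were seen. Fold changes and p-values are computed here; the authors' deposited table holds none.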

Additional observations from a re-analysis of the deposited data

How the results depend on the processing

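The direction of each transporter gene against db/m was kept under every alternative run, and no called value reversed. The filters, the intensity trend, the fit of only 2 groups and the replicate block leave a fold change as it is. So does leaving out an array of a group not compared. These alternatives bear on p-values and could not turn a direction. In db/db+TSF against db/db the small differences of Slc2a4, Slc2a9, Slc5a12 and Slc5a8 changed sign under some alternatives. Of 171 member values per comparison, 166 kept their side of the threshold in db/db against db/m (5 others gained a call), 171 in db/db+TSF against db/db and 157 in db/db+TSF against db/m (7 lost and 7 gained a call); of 162 for the mean of both diabetic groups, 148 did (7 lost, 7 gained). In db/db against db/m the number of transporter genes past the threshold was 0, and it was 1 with the filter at the 50th percentile, with a pseudocount of 16, with an intensity trend and robust variance, or with array weights, each time Slc2a4, and 3 at an adjusted p of 0.1. In db/db+TSF against db/m it was 1, and it was 2 with the filter at the 50th percentile or quantile normalization, 4 with the pseudocount of 16, 3 with the intensity trend, 4 at an adjusted p of 0.1 and 0 with arrays scaled to the same median or with only the 2 groups compared. For both diabetic groups it was 2, and it was 4 with the pseudocount, 5 with the intensity trend and 5 at 0.1. The cause of these changes was not tested. With 1 array left out, transporter counts ran from 0 to 1, from 0 to 1 and from 0 to 3 in these comparisons, and from 0 to 0 in db/db+TSF against db/db. Over all genes the counts were 187, 556 and 521. They were 442, 1012 and 953 at 0.1, and with 1 array left out 72 to 194, 213 to 563 and 231 to 422.

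Same-numbered arrays did not deviate together: the correlations of their deviations from the group means ran from -0.08 to 0.15, and 3 of 9 arrays correlated best with their own number. With the replicate number as a block, 0, 0, 1 and 2 transporter genes passed in db/db against db/m, db/db+TSF against db/db, db/db+TSF against db/m and both groups against db/m, and 137, 0, 434 and 407 genes in all.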

Other observations

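Some related genes lay lower in db/db+TSF than in db/db with arrays that did not overlap, none of them past the threshold: Slc5a6, the multivitamin carrier (-0.37, limma adjusted p = 0.284), Slc9a3, the apical sodium-proton exchanger NHE3 (-0.29, adjusted p = 0.324), Ldhd (-0.33, adjusted p = 0.284) and Slc2a13, the proton-coupled inositol carrier (-0.25, adjusted p = 0.368). Among all genes 12.3% had arrays that lay apart in that direction. Slc16a1, the lactate carrier MCT1, lay higher (0.64, adjusted p = 0.382) with arrays that did not overlap. G6pc measured 11.85 to 11.88 in db/db+TSF and 11.46 to 11.74 in db/db (0.25, adjusted p = 0.36). These genes were taken from the lists by their p in this comparison.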
